A study of Caenorhabditis elegans with 2 samples.

Results

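The microRNA (miRNA) genes of Caenorhabditis elegans were examined for peaks of chromatin precipitated through a tagged form of the transcription factor UNC-3. All genes of biotype miRNA in the Ensembl release 115 annotation of the assembly WBcel235 were taken, 261 of the 46926 annotated genes. A gene was counted as having a peak when a peak summit lay in its window, from 1000 bp upstream of the annotated 5' end to the 3' end. The windows of the 261 genes together covered 0.255% of the nuclear genome. All 261 genes had a symbol in the RefSeq annotation of the same assembly, matched by gene identifier.

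The chromatin came from whole late embryos of strain RW12259, which carries unc-3 fused to TY1, EGFP and 3xFLAG tags by a CRISPR insertion. The embryos were obtained by egg bleaching and labelled with an age of 2.5 hours, without a statement of the event from which the time was counted. There was 1 group of 2 biological replicates and no comparison group, and the control that the labels point to was not used here. The labels place the insertion on chromosome II, whereas the unc-3 gene lies on the X chromosome, and they name unc-3 as the antibody in one field and an antibody against GFP in another. Whole embryos mix all cell types, so no value below belongs to a cell type, and without a control a peak is no proof of UNC-3 binding. Nothing in the labels says how the 2 replicates were grown, so their spread may be technical in part.

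A miRNA is cut from a hairpin in a longer primary transcript, and the mature strand guides a silencing complex to messenger RNAs that pair with its seed, the bases near its 5' end. Genes with the same seed form a family and can act on shared targets. UNC-3, of the COE (Collier/Olf/EBF) transcription factors, is best known for switching on and maintaining the genes that give cholinergic motor neurons their identity. The annotated 5' end of a miRNA gene is usually that of the hairpin, not the start of the primary transcript.

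The 3 peaks of highest signal at miRNA genes that passed the authors' thresholds lay at the mir-51 family. The mature strands of its 6 genes are shown because they share 1 seed (bases 2 to 8, in capitals), ACCCGUA. Sequences were read 5' to 3' from the RefSeq genome of WBcel235 at the mature positions of the Ensembl annotation.
mir-51, 5p arm: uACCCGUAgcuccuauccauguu
mir-52, 5p arm: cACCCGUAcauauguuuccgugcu
mir-53, 5p arm: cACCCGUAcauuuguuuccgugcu
mir-54, 3p arm: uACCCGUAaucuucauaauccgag
mir-55, 3p arm: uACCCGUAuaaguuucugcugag
mir-56, 3p arm: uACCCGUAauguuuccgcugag
The strand with the shared seed comes from the 5p arm of the hairpin in mir-51, mir-52 and mir-53 and from the 3p arm in mir-54, mir-55 and mir-56. The family is related to the miR-99 and miR-100 miRNAs of other animals and is known to be needed in the worm embryo.

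The peaks themselves are shown for the 3 places of the family, since the summits lie at different distances from the hairpins. All are plus-strand sequences on WBcel235. The peak on chromosome IV from 11026146 to 11026308, upstream of mir-51, ends 34 bp from the hairpin and is printed without capitals.
mir-51 peak: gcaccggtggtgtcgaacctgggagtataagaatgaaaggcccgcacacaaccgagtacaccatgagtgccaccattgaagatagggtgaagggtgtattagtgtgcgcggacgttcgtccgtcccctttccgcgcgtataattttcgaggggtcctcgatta
The peak on chromosome IV from 14034007 to 14034146 holds the whole hairpin of mir-52, 100 bp long and in capitals here.
mir-52 hairpin peak: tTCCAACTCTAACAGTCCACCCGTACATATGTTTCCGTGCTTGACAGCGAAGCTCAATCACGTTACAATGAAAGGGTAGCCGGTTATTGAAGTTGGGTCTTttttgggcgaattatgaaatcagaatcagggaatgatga
A second peak, on chromosome IV from 14033063 to 14033326, lies 682 bp upstream of that hairpin. Capitals mark the hexamer GAGAGA on either strand, with 5 matches, of which those in the longer run overlap.
mir-52 upstream peak: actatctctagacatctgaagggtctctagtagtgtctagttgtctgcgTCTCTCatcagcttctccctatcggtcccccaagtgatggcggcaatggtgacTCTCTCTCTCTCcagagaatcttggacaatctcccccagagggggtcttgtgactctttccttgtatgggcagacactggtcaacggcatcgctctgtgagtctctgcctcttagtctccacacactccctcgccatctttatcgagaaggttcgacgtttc
The peak on the X chromosome from 13145149 to 13145412 lies upstream of mir-54, mir-55 and mir-56 and holds 1 match to the hexamer, in capitals.
mir-54 to mir-56 peak: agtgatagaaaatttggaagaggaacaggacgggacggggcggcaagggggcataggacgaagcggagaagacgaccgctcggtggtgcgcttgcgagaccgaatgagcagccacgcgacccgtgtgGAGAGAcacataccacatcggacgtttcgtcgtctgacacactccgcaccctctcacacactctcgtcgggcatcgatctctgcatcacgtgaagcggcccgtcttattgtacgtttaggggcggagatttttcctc

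Few miRNA genes had a peak in the conservative thresholded list for both replicates, called the main list here, which holds 631 peaks. A main summit lay in the window of 4 of 261 genes (1.53%, exact Clopper-Pearson 95% interval 0.419 to 3.88, which covers counting error only). These were mir-51, mir-52, mir-354 and mir-5549, with 5 distinct peaks. To compare gene classes of different length, a window of equal length was used, from 1000 bp upstream to 100 bp downstream of the 5' end. In that window the same 4 miRNA genes were counted, beside 1.87% of 19973 nuclear protein-coding genes and 1.87% of all other genes. The miRNA share was thus near the background. In the same window, 29.6% of 612 tRNA genes and 17.1% of 346 snoRNA genes had a main summit, and neither share's interval reached that of the miRNA genes. The shares of snRNA genes (4.65%) and of piRNA genes (0.26%) lay on either side of it.

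The other 3 thresholded lists held few miRNA genes as well. The second thresholded list for both replicates held 8 genes (3.07%, 1.33 to 5.95), against 1.88% of protein-coding genes and 1.86% of all other genes. The thresholded list of replicate 1 held 5 genes (1.92%), against 1.04% and 1.17%. That of replicate 2 held 3 genes (1.15%), against 1.07% and 1.17%. Every one of these miRNA intervals included its background. Across the 4 thresholded lists 8 genes at 6 loci had a peak in at least 1 list, 3.07% of members, against 2.31% of protein-coding genes and 2.21% of all other genes. Only mir-51 and mir-52 had a peak in all 4.

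In the longer of the 2 ranked lists for both replicates, called the ranked list here, which holds peaks with no threshold on reproducibility, 105 miRNA genes had a summit in the window (40.2%, 34.2 to 46.5). With the equal-length window the share was 40.6% (34.6 to 46.8), above the 30.1% of protein-coding genes and the 26.1% of all other genes and outside both of their intervals. A ranked summit in both replicates' own lists was found for 78 genes (29.9%, 24.4 to 35.8), against 19.1% and 16.5%. Among the 1000 strongest ranked peaks the surplus was not seen: 6 miRNA genes (2.30%, 0.848 to 4.94) had such a summit, against 2.58% and 2.41%. Among the 5000 strongest, a limit chosen after the values were seen, the share was 14.6% (10.5 to 19.4), against 8.48% and 7.15%. Many of these genes were counted through shared peaks, so this surplus rests in part on a few peaks. The genes mir-35 to mir-41 shared a peak of rank 3838. Those of mir-229, mir-64, mir-65 and mir-66 shared one of rank 3067, and mir-54 to mir-56 one of rank 3082. With the window that runs to the 3' end, 56.7% of protein-coding genes had a ranked summit, so the direction of the difference depends on giving all genes an equal window. Neighbouring miRNA genes share peaks and windows, so the counting intervals are too narrow.

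**Figure D1:**
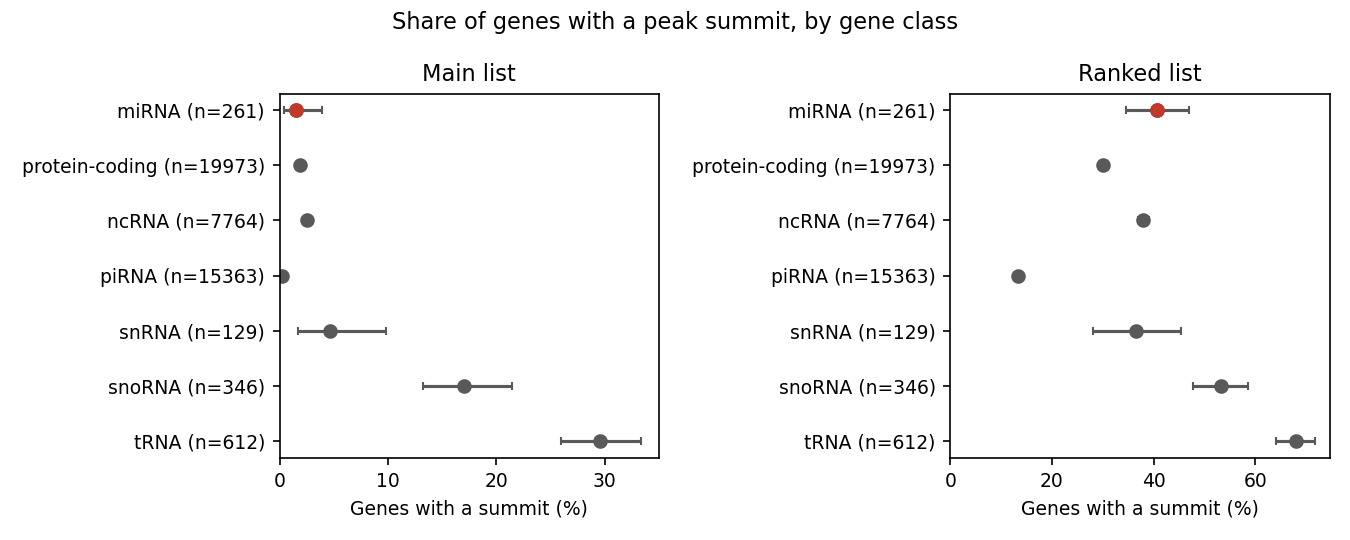
Share of genes (percent, x axis) with a summit in the equal-length window for each gene class (y axis), in the main list (left) and the ranked list (right). Points are shares and bars exact 95% intervals for counting error. The miRNA genes, in red, lie at 1.53% beside 1.87% for protein-coding genes on the left and at 40.6% beside 30.1% on the right, below tRNA and snoRNA genes in both panels.

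The strongest miRNA genes had peaks in both replicates, and many weak ones in 1 of them. The ranks within the replicates could still differ widely. At mir-8190 they were 1560 in replicate 1 and 15999 in replicate 2, at mir-72 922 and 11091, and at mir-87 801 and 7529. At mir-90 they were closer, at 1129 and 1566. At mir-249 the replicate 1 peak had its summit outside the window, so that peak was not counted here. Replicate 1 had a ranked summit at 127 miRNA genes (48.7%), against 35.7% of protein-coding genes and 31.4% of all other genes. Replicate 2 had one at 123 (47.1%), or 47.5% in the equal-length window, against 36.4% and 32.6%. For 49 genes the summit was in replicate 1 only, for 45 in replicate 2 only, and for 89 in neither. With the ranked list counted too, 84 genes had no summit. Among each replicate's own 1000 strongest peaks, replicate 1 had 8 miRNA genes and replicate 2 had 6, and mir-51, mir-52 and mir-354 were in both sets. Over the 78 genes with a summit in both replicates, Pearson's r of the log10 signals was 0.602 and Spearman's rho of the signals 0.337. These describe genes that partly share peaks: over 68 distinct pairs of peaks they were 0.613 and 0.286.

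**Figure D2:**
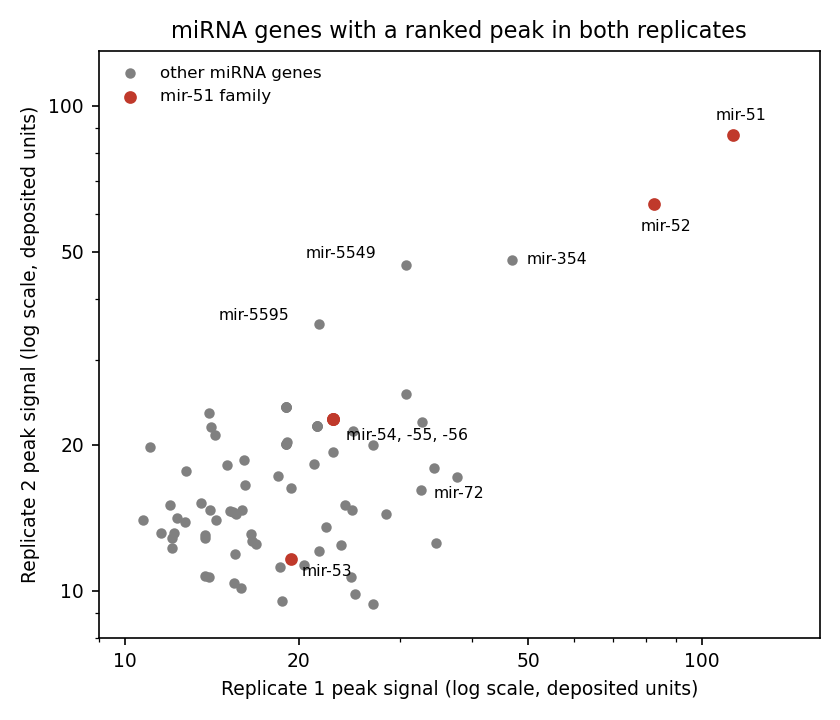
Strongest peak signal in the window in replicate 1 (x axis) and replicate 2 (y axis), in the deposited units on log scales, for the 78 miRNA genes with a ranked summit in both. Each point is a gene, and the mir-51 family is in red. The replicate 1 peak at mir-249 had its summit outside the window and is not drawn. The genes mir-51 (113 and 87.1) and mir-52 (82.4 and 62.8) are the highest points on both axes.

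At mir-51 (chromosome IV from 11026013 to 11026112, minus strand, outside protein-coding genes), the summit lay 100 bp upstream of the 5' end. Its signal was 197 in the list for both replicates, 113 in replicate 1 and 87.1 in replicate 2. Signals of the list for both replicates and those of single replicates are not on a shared scale, and no unit is stated for them. The peak ranked 36 of 631 in the main list and 98 in the ranked list, higher than at any other miRNA gene. Its summit fell inside F36H1.17, a non-coding RNA gene annotated on the same strand from 11026131 to 11026219, 7 bp from that gene's 5' end. A peak there cannot be assigned to mir-51 alone.

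The gene mir-53 is on the same strand, with its 5' end 1579 bp upstream of that of mir-51. Its summit lay 191 bp upstream of the hairpin, and its signal was 34.9 in the ranked list, 19.4 in replicate 1 and 11.6 in replicate 2. It ranked 6099 and was in no thresholded list. Within the shared locus the peak beside mir-51 was thus the higher one in both replicates and the list for both.

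At mir-52 (chromosome IV from 14034008 to 14034107, plus strand, outside protein-coding genes) there were 2 main peaks, with summits 845 bp apart. The one over the hairpin had its summit 32 bp downstream of the 5' end, with a signal of 146 for both replicates, 82.4 in replicate 1 and 62.8 in replicate 2. The upstream one had its summit 813 bp before the 5' end, with 114 for both replicates, 52.4 in replicate 1 and 58.9 in replicate 2. The order of the replicates thus differed between the peaks. Each was in all 4 thresholded lists. The summit over the hairpin also lay in a non-coding RNA gene on the opposite strand, annotated from 14033942 to 14034090. No protein-coding 5' end was within 9740 bp of it, the distance to Y37A1B.7.

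The genes mir-54, mir-55 and mir-56 span 404 bp on the minus strand of the X chromosome, in an intron of F09A5.3, which is on the opposite strand. They shared 1 peak, whose summit lay 187 bp upstream of mir-54, 357 bp upstream of mir-55 and 494 bp upstream of mir-56. Its signal was 40.5 for both replicates, 22.9 in replicate 1 and 22.6 in replicate 2. It was in the second thresholded list for both replicates and in that of replicate 1, though not in the main list or that of replicate 2. A weaker ranked peak with a signal of 11.8 overlapped it, and its summit lay 387 bp upstream of mir-54.

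The family's 6 genes thus lie at 3 loci, each with a ranked peak in both replicates, and 5 of the 6 genes had a peak in some thresholded list. Of 46 sets of miRNA genes that share a seed, it was the 1 set with any thresholded peak, a count made after the values were seen. The sets were formed by seed over all annotated arms. Some hold the same genes as another set or lie within a larger one, so they are not 46 separate families. The remaining genes with a thresholded peak, mir-354, mir-5549 and mir-5595, are in none of the 46 sets. This is a description of 3 loci and was not tested.

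**Figure D3:**
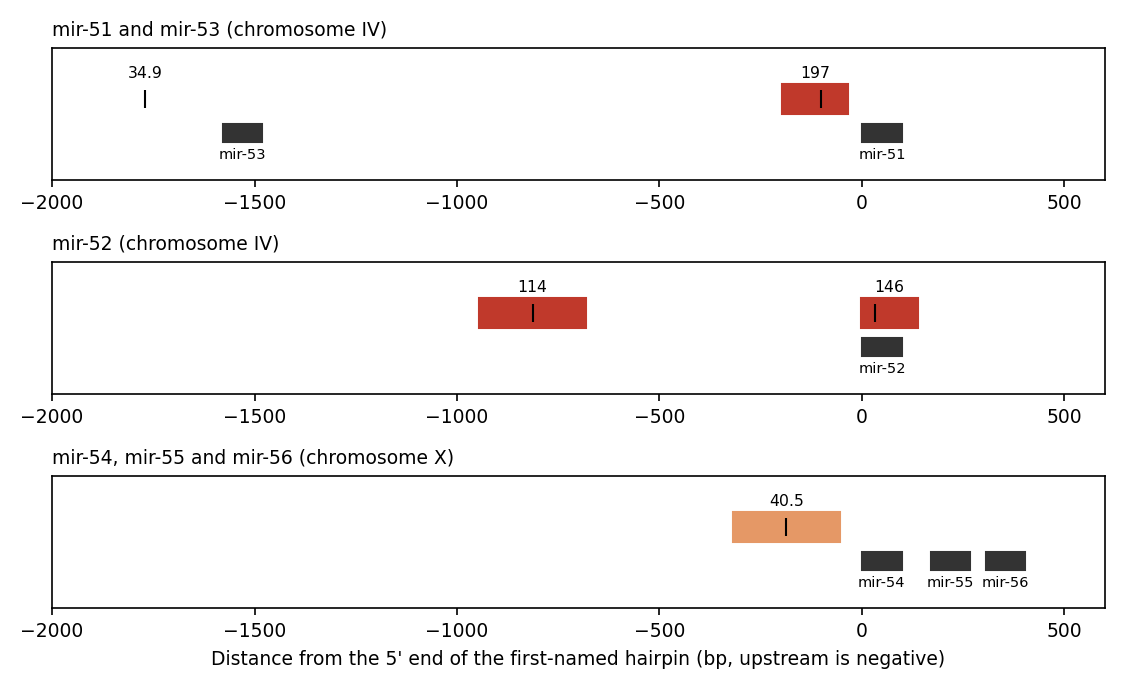
Hairpins (black) and peaks at the 3 loci of the mir-51 family by distance from the 5' end of the first-named hairpin (bp, upstream negative). Red peaks are in the main list and the orange one in another thresholded list, vertical ticks are summits, the peak at mir-53 is drawn as its summit only, and the weaker peak of 11.8 at mir-54 is left out. The numbers are ranked-list signals, from 34.9 at mir-53 to 197 at mir-51.

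The 2 other genes with a main peak lay beside protein-coding genes. At mir-354 (chromosome I from 14468382 to 14468491, minus strand) the signal was 98.5 for both replicates, 46.9 in replicate 1 and 48.1 in replicate 2. Both replicates were close, yet neither replicate's own thresholded list held the peak. Its summit was 865 bp upstream of the hairpin, 253 bp upstream of the 5' end of rps-20, a ribosomal protein gene that overlaps mir-354 with an exon on the same strand, and 144 bp upstream of ekl-4. The summit was therefore nearer to either protein-coding 5' end than to the hairpin.

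At mir-5549 (chromosome III from 6971976 to 6972085, minus strand, with no host gene) the signal was 78.4 for both replicates, 30.7 in replicate 1 and 47.1 in replicate 2. Replicate 2 was the higher, and the peak was in the thresholded list of replicate 2 only among those of single replicates. The summit was 42 bp upstream of the hairpin and 126 bp upstream of rfc-4, which encodes a subunit of the DNA clamp loader replication factor C. Peaks this close to a protein-coding 5' end cannot be assigned to the miRNA gene.

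The gene mir-5595 (chromosome II from 14399565 to 14399629) lies in an intron of nurf-1, a chromatin remodelling gene on the opposite strand. Its peak had a signal of 57.9 for both replicates, 21.7 in replicate 1 and 35.6 in replicate 2, and was in the second thresholded list for both replicates. The summit was 97 bp upstream of the hairpin and 326 bp upstream of the nearest 5' end of a nurf-1 transcript.

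The 10 highest ranked signals at miRNA genes were completed by mir-249, with 167, and 4 genes in no thresholded list. At mir-90, in an intron of K01F9.2, the signal was 53.3 for both replicates, 30.7 in replicate 1 and 25.5 in replicate 2. At mir-72 it was 50.6, with 32.6 and 16.2 in the replicates. At mir-87, in an intron of kup-1, it was 49.5, with 34.4 and 17.9. At mir-8190, in an intron of the cadherin gene hmr-1 on the opposite strand, it was 47.2, with 28.4 and 14.4. Replicate 1 had the higher signal at each of these 4 genes. Over the 105 genes with a ranked summit the strongest signal ranged from 3.93 to 197, with a median of 30.7. The 125 distinct ranked peaks in miRNA windows had a median of 27.8, near the 26.8 of all ranked peaks.

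Among 35 miRNAs of known function, 26 had a ranked summit (74.3%), against 79 of the 226 others (35.0%), a difference that was not tested. The 35 genes lie at 24 loci, of which 16 had one, and 2 of them, mir-51 and mir-52, had a main peak. The list was drawn up by role with earlier results of these data known. The share over all 261 miRNA genes was 40.2%, and the small counts by group below were not tested against it.

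The mir-35 family, which is needed in early embryos, had a ranked summit at 8 of 8 genes. Its genes mir-35 to mir-41 lie in a cluster of 797 bp on chromosome II, in an opposite-strand intron of Y62F5A.9. Their strongest peak was 1 shared peak of 38.6, ranked 3838, so this is 1 observation for 7 genes. Replicate 1 gave 19.0 there. The strongest replicate 2 summit was 23.9 in the windows of mir-35 to mir-38 and 20.1 in those of mir-39 to mir-41. The remaining gene, mir-42, lies apart on the same chromosome and had 32.2, with 20.6 in replicate 1 and no summit in replicate 2.

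Of 4 genes listed as the mir-58 family, related to the fly miRNA bantam, 3 had a ranked summit. The seed of mir-58.1 differs from that of mir-80, mir-81 and mir-82, which form a set of 6 genes of 1 seed with mir-58.2, mir-2209.1 and Y73B6A.17, and 2 of those 6 had a summit in the ranked list. The gene mir-58.1, in an intron of phkb-1, had 42.8, with 24.1 and 15.1 in the replicates. The gene mir-80 had 38.4, with 20.8 in replicate 1 and no summit in replicate 2. The gene mir-82 had 22.9, and mir-81 had none in the ranked list, with 24.1 in the shorter ranked list for both replicates and 19.5 in replicate 2. None of the 4 listed genes had a peak in any thresholded list.

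Of 5 miRNAs known for roles in neurons, 3 had a ranked summit, beside 40.2% of all miRNA genes, a difference that was not tested. The gene mir-2, in an intron of ppfr-1, had 45.5, with 32.8 in replicate 1 and 22.2 in replicate 2. The gene mir-124, in an intron of trpa-1 and known from sensory neurons, had 29.2, with 14.1 and 21.8. The gene mir-71, in the same host as mir-2, had 25.5, with 16.1 and 18.7. No summit was found in the ranked list or either replicate's own ranked list for lsy-6 or mir-791. The miRNA lsy-6 sets the left-right difference of a pair of taste neurons. None of the 5 had a peak in a thresholded list.

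The muscle miRNA mir-1, which acts at the neuromuscular junction, had a signal of 30.5, with 21.7 in replicate 1 and 12.1 in replicate 2. The summit lay 415 bp upstream, and the peak ranked 10389. The glial miRNA mir-228 had no summit in either ranked list for both replicates and 11.8 in replicate 2.

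Of the 5 heterochronic miRNAs, which time larval development, 2 had a ranked summit, beside 40.2% of all miRNA genes, and none had a thresholded one. The gene let-7 is annotated as 1732 bp long, and its strongest summit, of 28.8, lay 1431 bp downstream of that 5' end, with 24.5 in replicate 1 and none in replicate 2. That summit lay past the 3' end of both mature strands, which run from 14744191 to 14744255 on the minus strand. It was counted because the window runs to the annotated 3' end. The gene mir-84 also had 28.8, with 13.7 in replicate 1 and none in replicate 2. Replicate 1 had a summit at lin-4 (13.5), mir-48 (15.2) and mir-241 (14.3), none of which had one in the ranked list. At mir-241 replicate 2 had 21.0 and the shorter ranked list for both replicates 22.3. Among the 5 other miRNAs of the list, mir-79 had 21.9, mir-57 had 19.6 and mir-61 had 14.4, while mir-34 had 10.9 in replicate 1 alone and mir-786 had no summit.

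**Figure D4:**
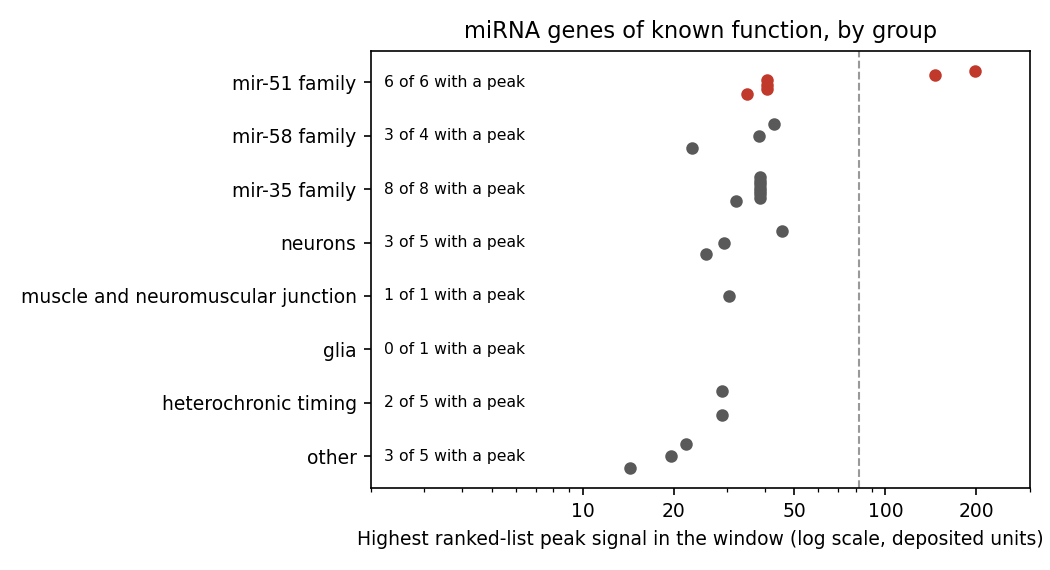
Strongest ranked-list signal in the window (x axis, deposited units, log scale) of each of the 35 miRNA genes of known function, by role group (y axis). Each point is a gene with a ranked summit, the counts on the left give how many had one, and the dashed line is the main list's median signal of 81.5. The points to the right of the line are mir-51 and mir-52, and the 7 genes from mir-35 to mir-41 share 1 peak.

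Genes joined when they lay within 10000 bp on 1 strand formed 209 loci, of which 29 held several genes, 81 in all. A main summit was at 4 loci (1.91%) and a ranked summit at 85 (40.7%), in the window to the 3' end. Counted by gene in that window, 2.90% of protein-coding genes and 2.36% of all other genes had a main summit. The shares with a ranked summit were 56.7% and 38.4%. In the equal-length window 1.87% of protein-coding genes had a main summit and 30.1% a ranked one. Of the loci with several genes, 14 had a ranked summit (48.3%), against 71 of 180 single genes (39.4%), and a locus with more genes has a longer window. The largest cluster, 11 genes on the X chromosome from 1872466 to 1880038, from mir-4807 to mir-4921, had no summit in the ranked list. Replicate 1 alone had one of 11.7 in the window of mir-4807 and one of 14.8 in those of mir-4923.1 and mir-4921, and replicate 2 had none. A main summit lay just outside, within 1000 bp of the 3' ends of mir-4921 and mir-4923.1. The cluster of mir-229, mir-64, mir-65 and mir-66 on chromosome III, in an intron of gcn-1, shared a peak of 40.6, with 21.5 in replicate 1 and 21.9 in replicate 2.

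By chromosome, the shares of miRNA genes with a ranked summit in the equal-length window were 45.5% on I, 53.1% on II, 55.6% on III, 44.0% on IV, 25.0% on V and 28.4% on X. The shares of protein-coding genes on the same chromosomes were 35.1%, 32.2%, 36.6%, 27.9%, 24.5% and 28.4%. The miRNA share was thus the higher one on chromosomes I to IV, and on V and X it was within 1 percentage point. The differences between chromosomes were not tested. Clustered genes that share a peak were counted separately here, such as mir-35 to mir-41 on II and mir-229, mir-64, mir-65 and mir-66 on III. The cluster of 11 genes with no summit in the ranked list is on X. The shares by chromosome were not counted by locus.

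A protein-coding gene contained 106 of the 261 miRNA genes, 74 of them on the same strand. In the equal-length window 57 of these 106 had a ranked summit (53.8%, 43.8 to 63.5), against 49 of the 155 with no host (31.6%, 24.4 to 39.6) and 30.1% of protein-coding genes. In the window to the 3' end the hosted genes numbered 56 and those with no host 49. The intervals did not overlap, but they are too narrow because clustered genes share peaks. In the window to the 3' end, both replicates had a ranked summit at 45.3% of hosted genes and 19.4% of those with no host. For protein-coding genes that share was 50.8% in the same window and 19.1% in the equal-length window. For all other genes it was 31.2% and 16.5%. In the equal-length window, a summit of the ranked list was found at 52.7% of genes with a same-strand host. It was found at 56.3% of those with an opposite-strand host only. Genes with an opposite-strand host include mir-35 to mir-41 and mir-54 to mir-56, clusters that each share a peak. Those with a same-strand host include mir-229, mir-64, mir-65 and mir-66, which also share one. The shares by host were not counted by locus.

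Of the ranked peaks in windows of hosted miRNA genes, 34.9% had a protein-coding 5' end within 500 bp of the summit, against 9.68% for miRNA genes with no host and 26.1% for all ranked peaks. Median GC around the summit was 44.3% and 39.8%, against 39.3% for all ranked peaks. The part of these differences in the share of genes with a peak was not tested. In the main list a summit lay at 1 of 106 hosted genes (mir-354) and 3 of 155 others, beside 1.87% of protein-coding genes. The order of these small counts turned to 5 and 3 in the second thresholded list and 3 and 2 in that of replicate 1. In that of replicate 2 it stayed, with 0 and 3. The shares of protein-coding genes in these lists were 1.88%, 1.04% and 1.07% in the equal-length window. Both turned counts include mir-54, mir-55 and mir-56, which share 1 peak, so the turn came from counting that peak at 3 genes.

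Around the 5' end, the highest share of miRNA genes with a ranked summit was in the bin from 200 bp upstream to the 5' end, at 14.9% (10.8 to 19.9), against 8.47% of protein-coding genes (8.09 to 8.87). The lowest was in the 200 bp that follow, at 6.90% (4.14 to 10.7). Most hairpins are shorter than that bin, so a summit there lies on the hairpin or beyond its 3' end. Hosted miRNA genes had 20.8% in the highest bin and those with no host 11.0%, and the intervals of these overlap.

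**Figure D5:**
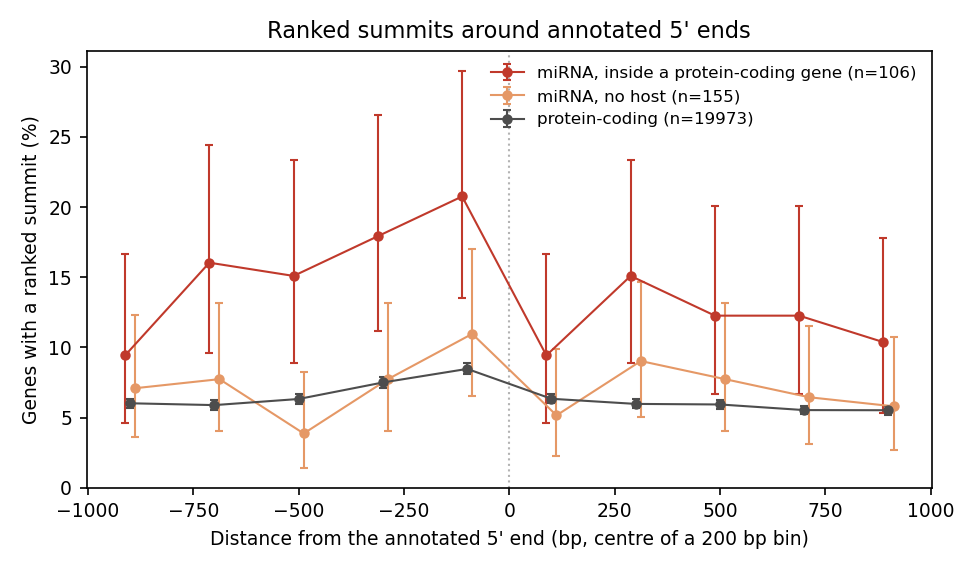
Share of genes (percent, y axis) with a ranked summit in each bin of 200 bp by distance from the annotated 5' end (bp, x axis), for miRNA genes inside a protein-coding gene, miRNA genes with no host and protein-coding genes. Bars are exact 95% intervals for counting error. The bin just upstream is highest in all 3, at 20.8%, 11.0% and 8.47%.

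Genes of tRNAs, snoRNAs and snRNAs were within 500 bp of 0 of the 125 ranked summits in miRNA windows, which allows a share of up to 2.40% (3 counts), and of 2.33% of all ranked summits. The exact binding motif of the COE family, searched on both strands, was within 100 bp of 0 of the 5 main summits at miRNA genes, which allows a share of up to 60%, beside 2.38% of all main summits. It was at 0 of the 125 ranked summits in miRNA windows, which allows up to 2.40%, beside 0.366% of all ranked summits. A difference from either background was thus not detectable with so few peaks. The relaxed form of the motif, which includes the exact one, was also at 0 of both sets, against 3.33% and 0.706%. In the equal-length windows the exact motif was in 1 of 261 miRNA windows (0.383%), against 0.396% of protein-coding windows. That site lay 726 bp upstream of mir-256 on chromosome V, 949 bp from the nearest ranked summit. The window of mir-256 had no summit in the ranked list, one of 13.9 in replicate 1 and none in replicate 2.

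The hexamer GAGAGA, counted on both strands, was within 100 bp of 2 of the 5 main summits (40%), those at mir-5549 and upstream of mir-52, against 29.2% of all main summits. It was at 31 of the 125 ranked summits in miRNA windows (24.8%), against 14.7% of all ranked summits. The equal-length windows of miRNA genes held it in 57.1% of cases, against 48.7% for protein-coding genes. The summit over the mir-52 hairpin and that upstream of mir-51 had neither motif within 100 bp.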

How the data were processed

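ChIP-seq peak lists of 2 biological replicates were used, 4 for both replicates together and 2 for each replicate, all on the assembly ce11 per the labels. The authors deposited, for each peak, a signal value, a score that is the scaled irreproducible discovery rate (IDR) and, in ranked lists, the global IDR as −log10. Not given in the sources used here were the signal's unit, the aligner, the peak caller and how the replicates were combined. Depth is unknown, since only peak lists were used here, and no test between samples was possible from them. Fragments were sonicated to 200 to 800 bp per the labels.

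Summits (1-based) were assigned to windows of Ensembl release 115 genes with Python 3.11.15, pandas 2.3.3 and scipy 1.17.1, and counting was tested on simulated data. Peak ends lay within the chromosome lengths of WBcel235. Intervals are exact Clopper-Pearson at 95%. A host is a protein-coding gene that contains the miRNA gene. Genes named are those with a main peak, the 10 of highest ranked signal and 35 miRNAs of known function; others were named after their values were seen. Members and lists were chosen with earlier results of these data known, and the equal-length window, the hexamer, the limit of 5000 peaks, the count over all 4 thresholded lists and the counts of repeated 36-base words were chosen after the files were seen. Alternatives changed the list, the window, the overlap rule, the distance that joins loci and the host's strand.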

Additional observations from a re-analysis of the deposited data

Results flagged for a closer look

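The ranked peak in the window of mir-249 stood out among miRNA genes as a strong peak in no thresholded list. Over the whole genome, peaks of higher signal were also missing from these lists. The highest signal was 3288 in the ranked list, against 501 in the main list and 910 in the second thresholded list. Why such peaks are missing was not tested. The mir-249 peak is described here. It lies on the X chromosome from 3007362 to 3007625, with its summit 958 bp upstream of the hairpin, outside protein-coding genes. Its signal was 166.648, rank 139 of the ranked list and second to mir-51 among miRNA genes, and its −log10 IDR was 5, the value also held by the mir-51 peak. The overlapping replicate peaks had signals of 61.3 in replicate 1, with its summit outside the window, and 114 in replicate 2. Of the 36-base words of this peak, 82.5% occur again in the genome, against 0% at the peaks of the other 9 genes of highest ranked signal and at those upstream of mir-54 to mir-56, the only others examined, and GC around the summit was 23.4%. Whether repeated sequence has a part in this signal was not tested. The sequence is shown because its repeats are visible in it, on the plus strand of WBcel235.
mir-249 peak: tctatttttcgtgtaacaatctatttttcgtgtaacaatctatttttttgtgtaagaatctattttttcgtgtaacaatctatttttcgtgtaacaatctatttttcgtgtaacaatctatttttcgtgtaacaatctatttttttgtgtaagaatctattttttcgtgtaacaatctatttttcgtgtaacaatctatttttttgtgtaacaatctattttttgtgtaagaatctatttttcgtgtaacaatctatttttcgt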

How the results depend on the processing

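Of 35 alternatives to the counts of miRNA genes and loci, 27 stayed within 1.5 times the reported count and 8 did not. The 4 genes with a main peak became 8 in the second thresholded list, with mir-54, mir-55, mir-56 and mir-5595 added. They became 7 with 1000 bp on both sides, with mir-62, mir-4921 and mir-4923.1 added, and 2 (mir-52 and mir-5549) when a summit counted only for the nearest 5' end of any gene. Each replicate alone gave 3 to 5. The 78 genes with a ranked summit in both replicates became 44 with 500 bp upstream and 122 with 1000 bp on both sides. The 1 hosted gene with a main peak became 5 in the second thresholded list and 0 to 3 with single replicates, 0 without replicate 1 and 3 without replicate 2. The 105 genes with a ranked summit ranged from 71 to 146 over their alternatives, and each replicate alone gave 123 to 127. The 4 loci gave 3 without either replicate. The 3 genes with no host gave 2 to 3. Depth is unknown, and without read counts a peak missing from a replicate's list cannot be told from one below its detection. No paired analysis was possible because there was 1 group, and its 2 replicates had no second group to pair with.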
